A study of Mus musculus with 4 samples.

Results

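The type 1 program of adipose regulatory T (Treg) cells was followed through 8 genes: the IL-12 receptor chains Il12rb1 and Il12rb2, the signal transducer Stat4, the transcription factor Tbx21, the chemokine receptor Cxcr3, the chemokine Ccl5, the granule gene Nkg7 and the cytokine Ifng. The genes were taken by symbol from the 32285 gene rows that each of the 2 expression matrices lists, and each symbol matched 1 row. Cells were counted where they had 500 or more genes, under 10% mitochondrial UMIs, 90% or more of their hashtag UMIs from a single hashtag and no UMI of Cd79a, Lyz2 or Cd8a, which mark B cells, macrophages and CD8 T cells. Each gene was then read over all such cells and over those with and without a UMI of Il1rl1, the gene of the IL-33 receptor ST2.

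In CD4 T cells, IL-12 binds a receptor built of the Il12rb1 and Il12rb2 chains and activates STAT4, which, together with interferon gamma, raises T-bet, the product of Tbx21. T-bet drives Cxcr3, Ifng and Ccl5 in type 1 helper cells, and Treg cells that carry T-bet and CXCR3 are known from type 1 inflammation, where CXCR3 guides them to the same sites as the helper cells. Most Treg cells of lean visceral fat belong to a different kind, marked by ST2 and PPAR gamma.

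Promoters are shown for the factor of the program and for 3 genes found with it in the same cells. RefSeq sequences (GRCm38.p6) covered 250 bases before to 50 bases after the annotated start and were given for 6 of the 8 genes; Ccl5 and Il12rb1 had no entry. Capitals mark the T-box core GGTGTG, the STAT site TTCNNNGAA and the RUNX motif TGTGGT, searched on both strands, so that a motif on the opposite strand appears as its reverse complement.
Tbx21 (chr11:97115282-97115581, minus strand): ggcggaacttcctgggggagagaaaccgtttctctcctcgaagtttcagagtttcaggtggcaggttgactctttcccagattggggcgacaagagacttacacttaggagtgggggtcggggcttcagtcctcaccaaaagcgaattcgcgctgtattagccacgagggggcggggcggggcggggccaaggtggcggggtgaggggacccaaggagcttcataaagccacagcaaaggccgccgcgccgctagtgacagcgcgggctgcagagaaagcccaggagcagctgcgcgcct
Cxcr3 (chrX:101734098-101734397, minus strand): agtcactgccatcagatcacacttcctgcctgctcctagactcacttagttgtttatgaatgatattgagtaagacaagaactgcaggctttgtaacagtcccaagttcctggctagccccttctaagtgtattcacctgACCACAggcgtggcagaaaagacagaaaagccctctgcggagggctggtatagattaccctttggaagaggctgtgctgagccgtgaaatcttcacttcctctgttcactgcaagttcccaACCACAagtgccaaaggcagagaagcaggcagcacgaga
Nkg7 (chr7:43436888-43437187, plus strand): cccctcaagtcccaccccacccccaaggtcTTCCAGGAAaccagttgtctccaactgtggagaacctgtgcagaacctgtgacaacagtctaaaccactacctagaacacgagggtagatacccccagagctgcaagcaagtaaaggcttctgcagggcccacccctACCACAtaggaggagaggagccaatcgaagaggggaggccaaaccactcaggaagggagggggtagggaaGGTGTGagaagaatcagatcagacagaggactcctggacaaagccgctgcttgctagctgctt
Ifng (chr10:118440796-118441095, plus strand): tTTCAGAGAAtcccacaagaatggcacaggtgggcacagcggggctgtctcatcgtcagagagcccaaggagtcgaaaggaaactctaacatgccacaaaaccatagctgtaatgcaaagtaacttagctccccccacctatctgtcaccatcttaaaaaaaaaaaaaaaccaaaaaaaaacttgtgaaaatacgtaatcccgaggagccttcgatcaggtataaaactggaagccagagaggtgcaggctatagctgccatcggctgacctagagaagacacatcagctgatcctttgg
The Nkg7 window held all 3 motifs, with the T-box core 13 bases, the RUNX motif 83 bases and the STAT site 220 bases before the start. The Cxcr3 window held the RUNX motif at 2 places, 110 bases before and 11 bases after the start, and the Ifng window a STAT site 249 bases before it. A STAT site also lay 123 bases before the start of Il12rb2. The Tbx21 window and both Stat4 windows held none of these letters, which says nothing of other parts of those genes. Over all 32851 promoters of the table, 19.0% held the T-box core, 8.30% the STAT site and 16.8% the RUNX motif, so that matches of this kind are common.

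All cells were CD3+ CD4+ Foxp3+ cells of visceral adipose tissue (VAT) of male mice, sorted and then mixed 1:1 by condition before 5′ single-cell RNA sequencing; a unique molecular identifier (UMI) stands for 1 captured molecule. In the Srebf2 pool, Hashtag 2 marked KO cells of 4 Foxp3YFP-cre Srebf2flox/flox mice and Hashtag 1 WT cells of 4 Foxp3YFP-cre Srebf2WT/WT mice, all 25 weeks old and at steady state; the deletion acts where Foxp3 drives Cre. The diet pool came from Foxp3thy1.1 PpargTdt animals aged 23 to 27 weeks after 22 weeks of feeding: 5 were given high-fat food (HFD, Hashtag 4) and 5 normal chow (NCD, Hashtag 3). Mice of a condition were pooled under 1 hashtag, so each condition is 1 sample without replicates: no test was run, and the 95% intervals cover counting error only. KO and WT shared 1 library, as did HFD and NCD, whereas levels of the Srebf2 pool and the diet pool stand side by side across separately prepared libraries.

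The filters kept 3956 KO, 3490 WT, 4512 HFD and 4938 NCD cells with medians of 3640.5, 3589.5, 3193.5 and 3989 UMIs and summed depths of 16444262, 14010241, 18543516 and 22200627 UMIs. Srebf2 stood at 3.95 UMIs per 1000000 (CPM, counts scaled to that total) in KO and 65.7 CPM in WT cells, which checks the genotype labels. A Foxp3 UMI was found in 56.7% of KO, 55.4% of WT, 40.5% of HFD and 53.7% of NCD cells, and a UMI of at least 1 of 7 Treg genes in 99.2% of KO, 99.3% of WT, 97.9% of HFD and 99.2% of NCD cells. At least 1 of 4 conventional CD4 T cell genes had a UMI in 87.2% of KO, 88.7% of WT, 80.5% of HFD and 91.4% of NCD cells. Shares of this kind therefore do not set Treg cells apart from other CD4 T cells. B cell and macrophage lists summed to 14.7 CPM or less. Of the CD8 T cell list, Cd8b1 was at 17.3 CPM in KO, 15.3 in WT, 18.9 in HFD and 12.9 in NCD cells, with a UMI in 5.84%, 5.21%, 5.61% and 4.23% of them. The NK cell list summed to 3.34 CPM in KO, 3.497 in WT, 2.26 in HFD and 13.9 in NCD cells, with UMIs of 3 of its 5 genes in HFD and of all 5 in the others. The 2 libraries shared 135 barcodes, of 9036 and 11456.

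Il12rb1, which encodes the receptor chain shared by IL-12 and IL-23, was at 32.7 CPM (30.0 to 35.6) in KO and 42.3 CPM (38.9 to 45.8) in WT cells. In the diet pool Il12rb1 was at 18.4 CPM (16.5 to 20.5) in HFD and 38.2 CPM (35.7 to 40.9) in NCD cells. It was lower in KO and in HFD cells, and the intervals did not overlap within either pool. Il12rb2, the chain that T-bet and interferon gamma induce and that makes a cell responsive to IL-12, was nearly absent: 25 UMIs in KO, 13 in WT, 46 in HFD and 64 in NCD cells. Its levels, from 0.928 CPM in WT to 2.88 CPM in NCD, lay below the minimum of 5 CPM set for calling a difference. Stat4 was at 322 CPM in KO, 274 in WT, 294 in HFD and 269 in NCD cells and was found in 59.7%, 56.2%, 59.9% and 59.9% of them. The ratio of the highest to the lowest condition was smaller for Stat4 than for the other 6 genes above 5 CPM.

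Tbx21 was at 52.2 CPM (48.7 to 55.8) in KO and 28.4 CPM (25.7 to 31.3) in WT cells. In the diet pool Tbx21 was at 32.6 CPM (30.0 to 35.3) in HFD and 31.1 CPM (28.8 to 33.5) in NCD cells. KO stood above the other conditions, while HFD and NCD overlapped within counting error. Cxcr3, whose receptor binds the interferon-induced chemokines CXCL9, CXCL10 and CXCL11, was at 126 CPM (120 to 131) in KO and 70.4 CPM (66.1 to 75.0) in WT cells. In the diet pool Cxcr3 was at 185 CPM (179 to 192) in HFD and 72.3 CPM (68.8 to 75.9) in NCD cells. Its 2 control levels overlapped, and HFD was the highest of the 4.

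Ccl5, which encodes a chemokine of effector T cells, was at 718 CPM (705 to 731) in KO and 305 CPM (296 to 314) in WT cells, and at 466 CPM (456 to 476) in HFD and 441 CPM (433 to 450) in NCD cells. Nkg7, which encodes a granule membrane protein of cytotoxic lymphocytes, was at 149 CPM (143 to 155) in KO and 73.2 CPM (68.8 to 77.9) in WT cells. In the diet pool Nkg7 was at 72.3 CPM (68.4 to 76.2) in HFD and 87.4 CPM (83.6 to 91.4) in NCD cells. For both genes KO stood apart from the rest, and for Nkg7 the WT and HFD levels overlapped. Ifng was at 52.1 CPM (48.7 to 55.7) in KO and 35.5 CPM (32.5 to 38.8) in WT cells, and at 23.1 CPM (20.9 to 25.4) in HFD and 31.5 CPM (29.2 to 34.0) in NCD cells. WT and NCD overlapped for Ifng, and HFD was the lowest of the 4. Between 21.3% and 25.2% of the Ifng UMIs of a condition lay in 10 cells, and a single KO cell held 57 of them.

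**Figure D1:**
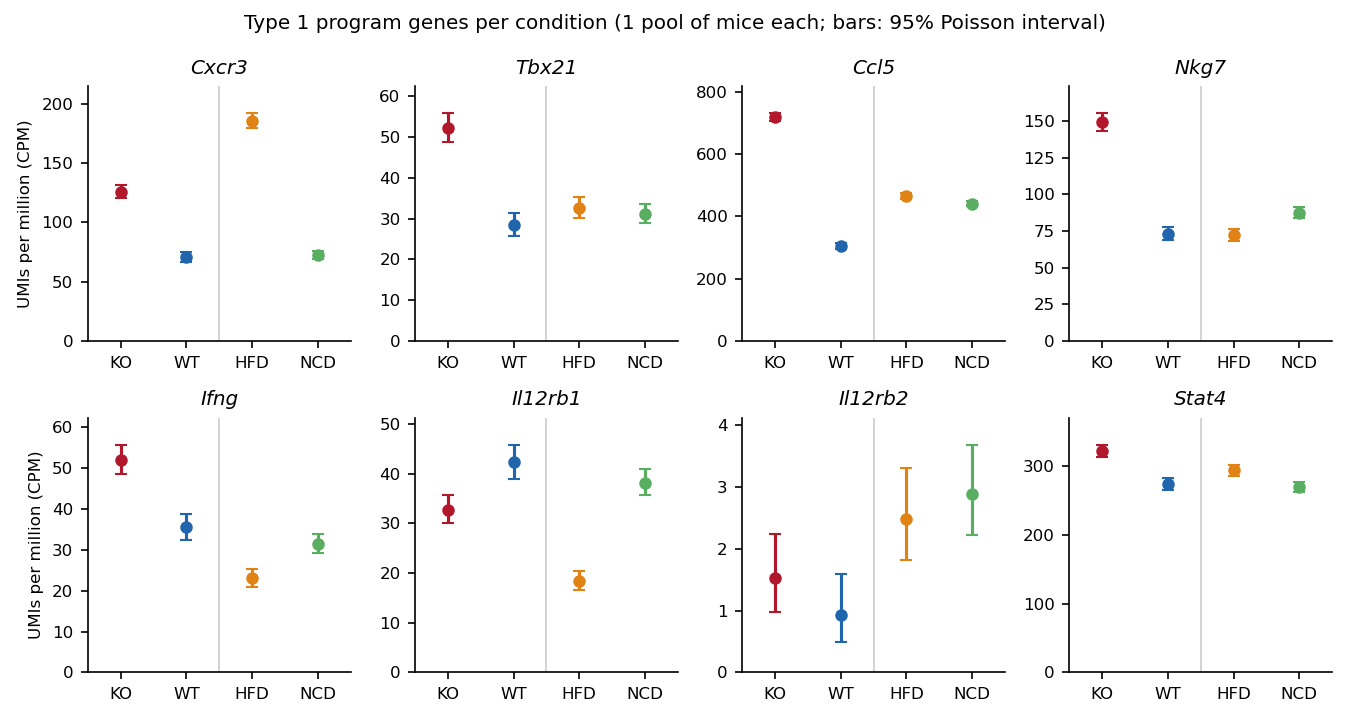
Level of each of the 8 genes in KO, WT, HFD and NCD cells, in CPM with 95% Poisson intervals (y axis from 0, its range set per gene); each point is 1 pool of mice. KO is the highest point for Tbx21, Ccl5, Nkg7, Ifng and Stat4 and HFD for Cxcr3, while Il12rb1 is lower in KO than in WT and in HFD than in NCD.

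The KO to WT comparison asks how Treg cells differ when Srebf2, the transcription factor gene of cholesterol synthesis, is deleted in Foxp3-expressing cells. The effector end of the program was higher in KO: Ccl5 2.36-fold, Nkg7 2.04-fold, Tbx21 1.84-fold, Cxcr3 1.78-fold and Ifng 1.47-fold. The receptor end was not, with Il12rb1 1.29-fold lower and Stat4 1.18-fold higher. By a rule of size (a ratio of 5 to 4 or more, 0.32 on the log2 scale, with the higher condition at 5 CPM or above), 5 of the 7 genes at that level were higher and 1 was lower. Over all 9822 genes at 5 CPM, 5.41% were higher and 4.9% lower by the same rule. The median log2 ratio of all 8 genes, with Il12rb2 below 5 CPM included, was 0.76, against 0.00 over all genes at 5 CPM. Among the 7 genes at 5 CPM, the middle ratio was 0.84, that of Cxcr3. The log2 ratios ran from 1.24 (1.19 to 1.29) for Ccl5 to −0.37 (−0.54 to −0.20) for Il12rb1. Among cells with a Foxp3 UMI, the ratios were 1.41 for Ccl5, 1.06 for Nkg7, 1.01 for Tbx21, 0.98 for Cxcr3 and 0.52 for Ifng. The 8 dissociation response genes (Fos, Atf3 and others) summed to 11371 CPM in KO and 13258 CPM in WT cells; their part in the result was not tested.

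KO cells more often gave a UMI of Ccl5, Nkg7, Cxcr3 and Tbx21, and gave more Ccl5 UMIs per positive cell. Ccl5 was found in 26.5% (25.1 to 27.9) of KO and 18.3% (17.1 to 19.7) of WT cells, with a mean of 11.3 UMIs per Ccl5-positive KO cell and 6.67 per Ccl5-positive WT cell. Nkg7 was found in 19.4% (18.2 to 20.7) of KO and 9.68% (8.72 to 10.7) of WT cells, with 3.20 and 3.04 UMIs per positive cell. The counted difference in Nkg7 therefore lay mostly in the number of cells with a UMI, and that in Ccl5 in both measures. At so few Nkg7 UMIs per cell, fewer cells with a transcript cannot be told apart from fewer transcripts per cell. With every cell thinned to 2000 UMIs to equalize depth, the shares were 21.9% of KO and 14.9% of WT cells for Ccl5, 17.2% and 10.3% for Cxcr3, 14.2% and 7.92% for Nkg7, and 8.07% and 4.49% for Tbx21. B cell-like barcodes of either pool, taken as a measure of background, gave no more than 2.60% for any of the 4 at the same depth (77 barcodes of the Srebf2 pool and 179 of the diet pool). Whether those barcodes express any of the 4 themselves was not tested. The few macrophage-like barcodes reached 6.25% for Cxcr3 and Ccl5 (1 of 16 each, Srebf2 pool) and 5.26% for Tbx21 and Ccl5 (2 of 38 each, diet pool), so the background of Tbx21 is not well set. Stat4 was found in 27.3% and 25.1% of those barcodes, in 12.5% and 2.63% of the macrophage-like ones, and in 37.1% to 42.4% of the kept cells of a condition.

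An Il1rl1 UMI was found in 58.7% (57.1 to 60.2) of KO and 71.0% (69.5 to 72.5) of WT cells, or in 48.8% and 58.3% after thinning. Among cells with an Il1rl1 UMI, 5 of the 7 genes at 5 CPM were higher in KO and 0 lower, against 5.4% and 6.45% of all genes. Ifng was at 27.2 CPM in KO and 10.4 CPM in WT cells of this kind (log2 ratio 1.38, 1.06 to 1.71), Cxcr3 at 48.7 and 23.1 CPM (1.07), Ccl5 at 191 and 99.4 CPM (0.94) and Nkg7 at 56.3 and 33.7 CPM (0.74). A single KO cell held 19.7% of these Ifng UMIs, and the ratio was 1.20 (0.86 to 1.56) without the top cell of each condition. Among cells without an Il1rl1 UMI, 3 of 7 were higher and 1 lower, against 11.2% and 10.1% of all genes: Ccl5 was at 1687 CPM in KO and 930 CPM in WT cells (0.86), Nkg7 at 320 and 194 CPM (0.73) and Tbx21 at 118 and 76.5 CPM (0.62), whereas Il12rb1 was at 21.1 and 29.1 CPM (−0.47). Cxcr3 was at 267 and 214 CPM there, just under the size rule (0.32), which it passed under 6 of 11 alternatives, with 0.51 after thinning. Ifng was at 97.9 and 112 CPM (−0.19), and at 0.066 after thinning. Ccl5 and Nkg7 were thus higher in KO cells of both kinds. Tbx21 was at 16.6 CPM in KO and 12.6 CPM in WT cells with an Il1rl1 UMI (0.40, 0.07 to 0.73) and did not pass the size rule there under 2 of the 11 alternatives. With both kinds weighted to the same shares in KO and WT, the log2 ratios were 0.88 for Ccl5, 0.73 for Nkg7, 0.56 for Tbx21, 0.50 for Cxcr3 and 0.24 for Ifng, the last no longer past the size rule.

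**Figure D2:**
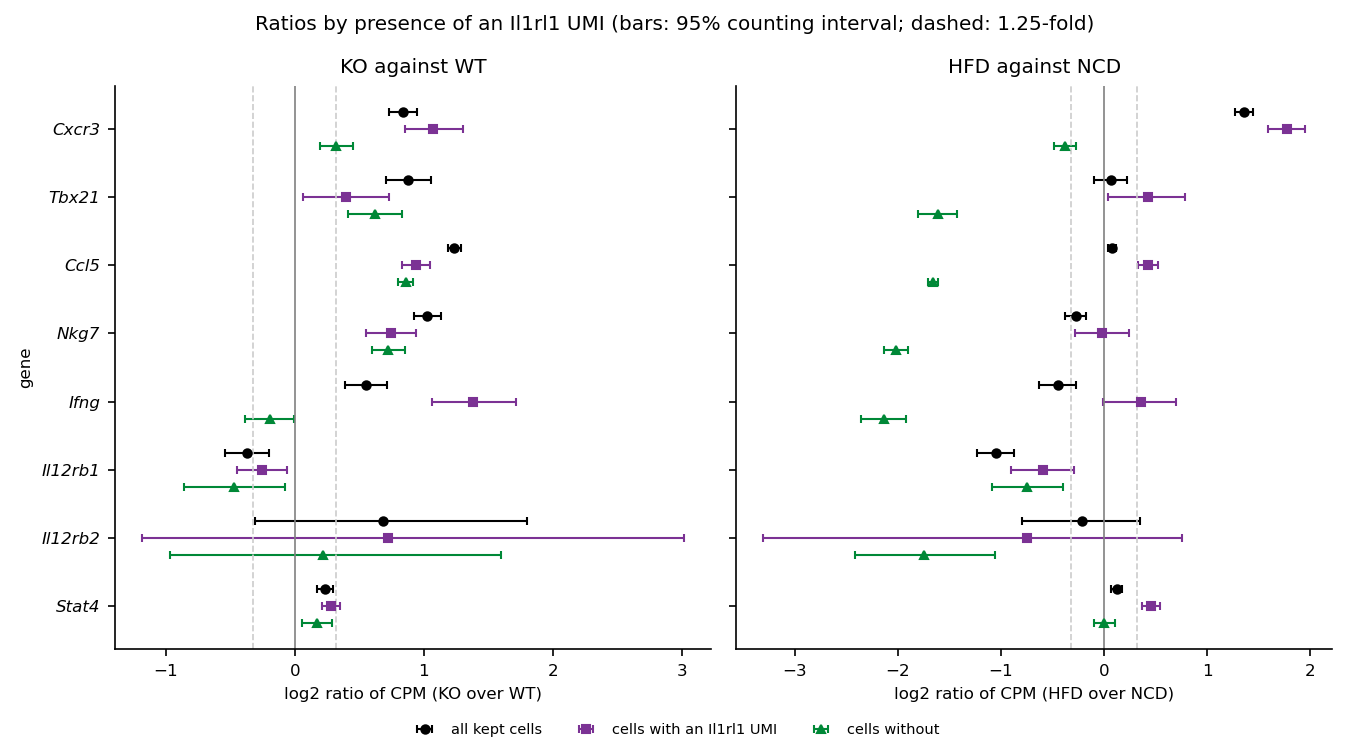
Log2 ratio of CPM, KO over WT (left) and HFD over NCD (right), per gene, over all kept cells (black circles), cells with an Il1rl1 UMI (purple squares) and cells without (green triangles), with 95% counting intervals. Dashed lines mark the size rule, 0.32 in either direction. In the right panel Tbx21, Ccl5, Nkg7 and Ifng lie between −0.45 and 0.08 over all cells and between −1.61 and −2.14 in cells without an Il1rl1 UMI.

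The second comparison asks how VAT Treg cells differ between mice given high-fat food and mice given chow. Over all cells the program did not move as a block: Cxcr3 was 2.56-fold higher in HFD, Il12rb1 2.07-fold and Ifng 1.37-fold lower, and Tbx21, Ccl5, Nkg7 and Stat4 stayed under the size rule. That is 1 higher and 2 lower of the 7 genes at 5 CPM, in a comparison in which 23.6% of all 10024 genes were higher and 15.8% lower. The median log2 ratio of all 8 genes, with Il12rb2 below 5 CPM included, was −0.07, against 0.08 over all genes at 5 CPM. Among the 7 genes at 5 CPM, the middle ratio was 0.07, that of Tbx21. Cxcr3 stood at a log2 ratio of 1.36 (1.27 to 1.45), Il12rb1 at −1.05 (−1.24 to −0.87) and Ifng at −0.45 (−0.63 to −0.27). Cxcr3 was found in 33.2% (31.8 to 34.6) of HFD and 15.1% (14.1 to 16.1) of NCD cells, with 2.30 and 2.15 UMIs per positive cell, or in 24.1% and 10.2% after thinning. Il12rb1 was found in 6.78% of HFD and 14.7% of NCD cells, or in 3.66% and 6.66% after thinning. With cells holding Cd79a, Lyz2 or Cd8a UMIs kept, the log2 ratios were 0.25 for Nkg7 (−0.27 without such cells), 0.33 for Ccl5 (0.08) and −0.27 for Ifng (−0.45), so that Ccl5 passed the size rule and Ifng no longer did. Among the cells so removed, 81 of HFD and 34 of NCD held Cd8a.

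Split by Il1rl1, the same cells gave another picture. An Il1rl1 UMI was found in 17.6% (16.5 to 18.7) of HFD and 78.1% (76.9 to 79.2) of NCD cells, so the cells without one numbered 3719 of 4512 in HFD and 1083 of 4938 in NCD. Among these, 7 of the 8 genes were lower in HFD and 0 higher, where 18.8% of 10034 genes were lower and 14.8% higher, and the median log2 ratio was −1.64, against −0.03 over all genes. Il12rb2 was among the 7 and reached 5 CPM only in NCD, at 9.73 CPM against 2.92 CPM in HFD. Ifng was at 23.3 CPM in HFD and 103 CPM in NCD cells of this kind (log2 ratio −2.14, −2.35 to −1.92). Nkg7 was at 80.9 and 328 CPM (−2.02), Ccl5 at 516 and 1632 CPM (−1.66) and Tbx21 at 35.6 and 109 CPM (−1.61). Il12rb1 was at 16.3 and 27.3 CPM (−0.75), and Stat4, the exception, at 274 and 274 CPM. Cxcr3 was at 204 and 265 CPM (−0.38), but with cells thinned to 2000 UMIs its ratio was 0.04, and it was found in 26.3% of HFD and 24.4% of NCD cells. After thinning, Nkg7 was found in 7.30% (6.43 to 8.25) of HFD and 18.8% (16.8 to 20.8) of NCD cells without an Il1rl1 UMI, Tbx21 in 5.57% and 11.8%, Ccl5 in 18.0% and 28.4% and Ifng in 3.63% and 8.04%. Il1rl1 was read again after thinning, and cells without a UMI of it then numbered 3248 in HFD and 1493 in NCD. The NCD number exceeded the 1083 counted before, so some of those NCD cells had held an Il1rl1 UMI. Without thinning, Cxcr3 was found in 35.1% (33.5 to 36.6) of HFD and 43.1% (40.1 to 46.1) of NCD cells without an Il1rl1 UMI. Cxcr3 was thus about as frequent in both conditions after thinning but less frequent in HFD without it. Tbx21, Ccl5, Nkg7 and Ifng were found less often in HFD after thinning.

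Markers of NK cells moved with these values. A UMI of the NK cell list was found in 0.511% of HFD and 2.49% of NCD cells without an Il1rl1 UMI, and a Foxp3 UMI in 37.6% and 41.1%. Leaving out every cell with a UMI of Cd8b1 or of the NK, gamma delta or NKT cell lists, a choice made after seeing the data, gave −2.24 for Ifng, −1.87 for Nkg7, −1.70 for Ccl5, −1.48 for Tbx21 and −0.34 for Cxcr3. The Il12rb2 ratio among cells without an Il1rl1 UMI was −1.74 with these cells, at 43 UMIs in HFD and 36 in NCD, and −0.14 without them, below 5 CPM in both conditions. Among Foxp3-positive cells without an Il1rl1 UMI, the ratios were −2.48 for Ifng, −1.77 for Ccl5 and −1.71 for Tbx21. The dissociation response genes summed to 4398 CPM in HFD and 11647 CPM in NCD cells; their part in the result was not tested.

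Among cells with an Il1rl1 UMI, the direction was the opposite for several of the genes. Cxcr3 was at 115 CPM in HFD and 33.8 CPM in NCD cells (log2 ratio 1.77, 1.59 to 1.95), Ccl5 at 273 and 203 CPM (0.43), Tbx21 at 20.7 and 15.5 CPM (0.43), Stat4 at 368 and 268 CPM (0.46) and Ifng at 22.1 and 17.3 CPM (0.36, −0.01 to 0.70). A single HFD cell held 16.7% of these HFD Ifng UMIs. Without the top cell of each condition, the Ifng ratio was 0.19 (−0.21 to 0.57), under the size rule. Nkg7 was at 38.9 and 39.3 CPM, and Il12rb1 at 26.8 and 40.4 CPM (−0.59). That is 5 of 7 higher and 1 lower, where 23.4% of 9886 genes were higher and 14.5% lower. Of those 5, only Cxcr3 and Stat4 kept that call under each of the 11 alternatives run for these cells, and the number higher came to 2 under 3 of them. After thinning, Tbx21 was found in 2.03% of KO, 1.67% of WT, 2.89% of HFD and 1.77% of NCD cells with an Il1rl1 UMI. B cell-like barcodes gave 2.60% and 2.23%, so the Tbx21 shares in these cells are not told apart from that measure of background. With both kinds weighted to the same shares in HFD and NCD, Cxcr3 was at 0.17, Tbx21 at −1.07, Ccl5 at −1.15, Ifng at −1.30 and Nkg7 at −1.55.

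**Figure D3:**
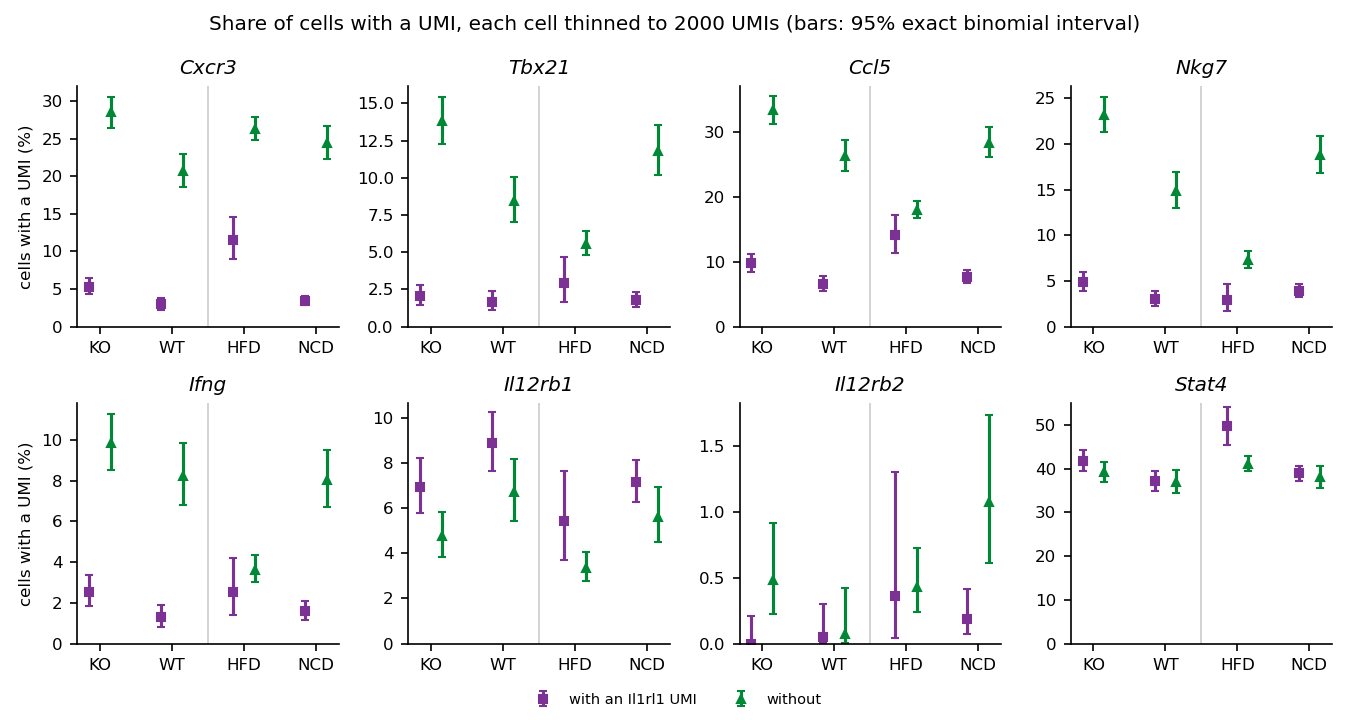
Share of cells with a UMI of each gene, in cells with (purple squares) and without (green triangles) an Il1rl1 UMI, for KO, WT, HFD and NCD, every cell thinned to 2000 UMIs, with 95% exact binomial intervals (y axis range set per gene). The gap between both kinds of cells is wide in KO, WT and NCD for Tbx21, Ccl5, Nkg7 and Ifng and narrower in HFD, where Nkg7 was found in 2.89% and 7.30% of cells.

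Within a condition, Cxcr3, Tbx21, Ccl5, Nkg7 and Ifng stood lower in cells with an Il1rl1 UMI than in cells without one, except Ifng in HFD. Ccl5 was 8.83-fold lower in KO, 9.35-fold in WT, 1.89-fold in HFD and 8.04-fold in NCD cells. Cxcr3 was 5.48-fold, 9.25-fold, 1.77-fold and 7.84-fold lower, Tbx21 7.06-fold, 6.05-fold, 1.71-fold and 7.02-fold, and Nkg7 5.68-fold, 5.75-fold, 2.08-fold and 8.33-fold, in the same order. Ifng was 3.59-fold lower in KO, 10.7-fold in WT and 5.94-fold in NCD cells, and at 22.1 and 23.3 CPM in HFD cells. Il12rb1 went the other way in each of the 4 conditions, higher in cells with an Il1rl1 UMI by 1.85-fold in KO, 1.59-fold in WT, 1.65-fold in HFD and 1.47-fold in NCD. Stat4 was 1.16-fold higher in such cells in KO and 1.34-fold in HFD, and within 1.08-fold in WT and NCD. Cells with an Il1rl1 UMI were deeper, with medians of 3991.5 against 3166 UMIs in KO, 3802 against 3046 in WT, 3772 against 3091 in HFD and 4221 against 3103 in NCD, and a shallow cell can miss an Il1rl1 UMI.

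Cxcr3, Tbx21, Ccl5, Nkg7 and Ifng were often found in the same cells, and Il12rb1 and Stat4 were not part of that pattern. After thinning, Ccl5 was found in 67.4% of Nkg7-positive and 14.3% of Nkg7-zero KO cells, in 59.9% and 11.0% of WT cells, in 56.9% and 14.7% of HFD cells and in 62.3% and 9.79% of NCD cells. Cxcr3 was found in 54.8% of Tbx21-positive and 13.9% of Tbx21-zero KO cells, in 46.9% and 8.62% of WT, in 49.7% and 22.7% of HFD and in 46.6% and 8.26% of NCD cells. The phi coefficient, a correlation of detection over the cells of 1 condition at equal depth, was for Ccl5 and Nkg7 0.45 in KO, 0.37 in WT, 0.28 in HFD and 0.42 in NCD. For Cxcr3 and Ccl5 it was 0.34, 0.37, 0.21 and 0.38, and for Cxcr3 and Tbx21 0.30, 0.26, 0.14 and 0.28. These 3 pairs were lowest in HFD. Pairs with Il12rb1 averaged within 0.01 of 0 over the conditions, and pairs with Stat4 between −0.01 and 0.03. Il12rb2 and Nkg7 averaged 0.09, from few Il12rb2-positive cells. The cells of a condition share a library, so these values describe the pools.

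**Figure D4:**
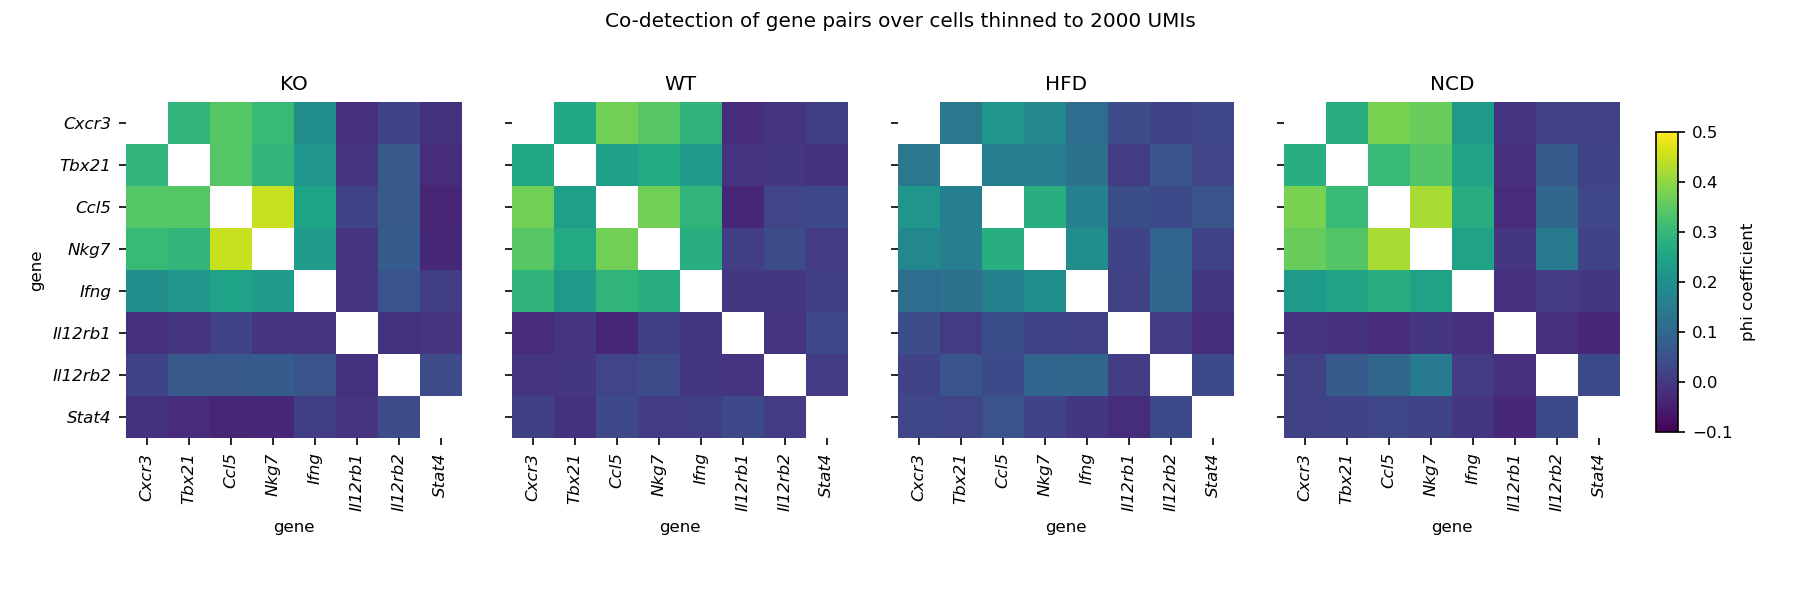
Phi coefficient of detection for each pair of the 8 genes (colour scale) in KO, WT, HFD and NCD cells thinned to 2000 UMIs. Cxcr3, Tbx21, Ccl5, Nkg7 and Ifng form a block of higher values, brightest for Ccl5 and Nkg7 (0.45 in KO and 0.28 in HFD), and the rows of Il12rb1 and Stat4 stay near 0.

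Among 7401 genes found in 2% or more of the cells of every condition, together with the 8 themselves, the 3 genes with the highest mean phi to Cxcr3, Tbx21, Ccl5, Nkg7 or Ifng were in each case other members of that group of 5. For Ifng they were Ccl5 (0.24), Nkg7 (0.24) and Cxcr3 (0.21). For the remaining genes the closest were weak, at 0.05 for Ltb4r1 and Klrg1 with Il12rb1 and at 0.10 for Tnfaip3 and 0.09 for Nr4a3 with Stat4. Klrg1 is known as a marker of ST2-positive tissue Treg cells.

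The genes were also counted per cell. After thinning, 3 or more were found in 13.8% (12.7 to 14.99) of KO, 7.98% (7.06 to 8.98) of WT, 9.76% (8.84 to 10.7) of HFD and 8.90% (8.10 to 9.75) of NCD cells. In cells without an Il1rl1 UMI the shares were 23.7% (21.8 to 25.7) in KO and 16.1% (14.2 to 18.2) in WT, and 10.6% (9.55 to 11.7) in HFD and 21.6% (19.5 to 23.7) in NCD. In cells with one, they were 3.43% (2.64 to 4.39) in KO and 2.15% (1.54 to 2.92) in WT, and 4.88% (3.24 to 7.02) in HFD and 2.91% (2.35 to 3.56) in NCD. Cells with many of the genes were more frequent in KO than in WT, and less frequent in HFD than in NCD, among cells without an Il1rl1 UMI, whereas the intervals overlapped within each pool among cells with one. Without thinning, the intervals of cells with an Il1rl1 UMI did not overlap, at 10.4% (9.21 to 11.7) in KO and 5.81% (4.92 to 6.80) in WT, and 16.5% (14.0 to 19.3) in HFD and 7.86% (7.03 to 8.75) in NCD. Among these unthinned cells, those with 3 or more of the genes were deeper than the rest. Their medians were 4950.5 against 3931 UMIs in KO, 4650.5 against 3778 in WT, 5591 against 3603.5 in HFD and 6269 against 4168 in NCD. None of the kept cells held all 8 genes after thinning; the most in a cell was 7, in NCD.

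**Figure D5:**
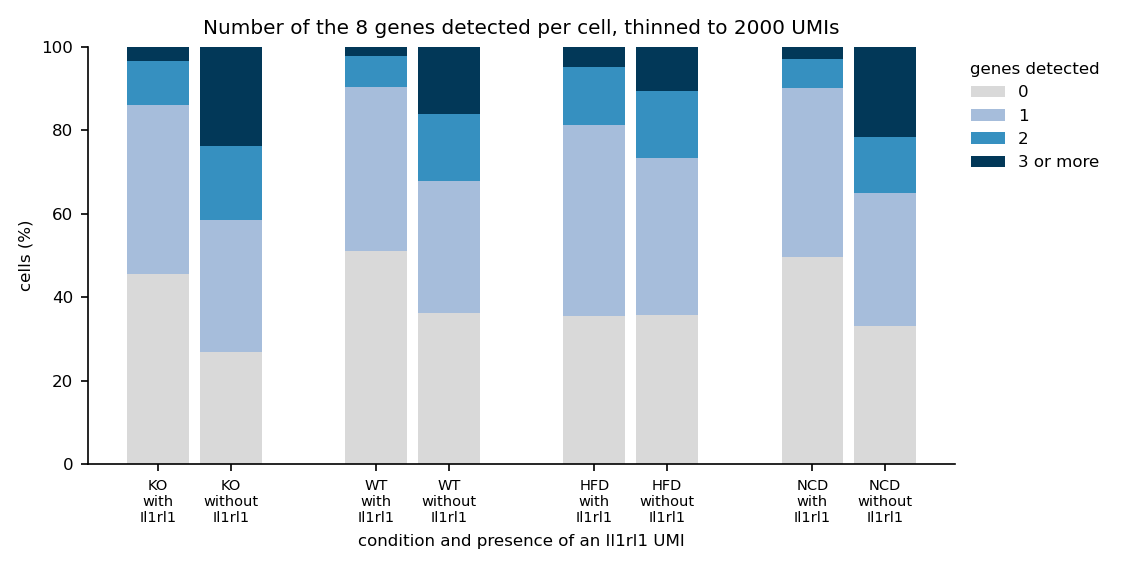
Cells with 0, 1, 2 and 3 or more of the 8 genes detected, as a percent of the cells with and without an Il1rl1 UMI in KO, WT, HFD and NCD, every cell thinned to 2000 UMIs. The darkest segment, 3 or more genes, reaches 23.7% in KO and 21.6% in NCD cells without an Il1rl1 UMI and 10.6% in such HFD cells.

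Cells with 3 or more of the genes carried Foxp3 about as often as cells with 0. A Foxp3 UMI was found, after thinning, in 39.7% and 37.3% of these cells in KO, 32.3% and 36.5% in WT, 28.8% and 23.8% in HFD, and 30.9% and 32.8% in NCD. Ikzf2, which encodes Helios, was found in 74.0% and 65.6% in KO, 70.9% and 68.7% in WT, 78.2% and 62.6% in HFD and 73.2% and 67.6% in NCD. Il2ra, the high-affinity IL-2 receptor chain, was found less often in the cells with 3 or more, in 31.3% and 55.9% in KO, 38.2% and 64.8% in WT, 14.0% and 27.8% in HFD and 35.3% and 65.8% in NCD. Izumo1r, which encodes folate receptor 4, was found more often in them in KO (35.9% and 17.8%), WT (31.9% and 14.5%) and NCD (22.5% and 9.01%), and in 45.6% and 45.7% in HFD. The NK cell receptor gene Ncr1 was found in 4.59% of NCD cells with 3 or more of the genes, against 0.0969% of those with 0, and in 0.794% of such KO and 1.18% of such WT cells.

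Of the wider IL-12 and IL-18 list, 1 of 5 further genes was higher in KO, the IL-18 receptor gene Il18r1 (log2 ratio 0.36), and 0 were lower, where 5.41% of all genes were higher and 4.9% lower. None of 8 interferon gamma receptor and response genes passed the size rule, with Ifngr2 at −0.31 and Socs1 at −0.24 the farthest from 0. Of further type 1 transcription factors at 5 CPM, 1 of 4 was higher, Bhlhe40 (0.82), and Zeb2 was at −0.22. Of further chemokines and receptors, 1 of 4 was higher, Ccl4 (0.59), and of effector cytokines and ligands 1 of 4, Fasl (0.61). In the cytotoxic list 2 of 4 were higher, the granzyme Gzmb (0.58) and, named after its value was seen, Ctsw (0.34), and 1 lower, Gzma (−1.84), at 1.40 CPM in KO and 5.07 CPM in WT cells.

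In HFD the same lists split. Of 8 interferon gamma receptor and response genes, 5 were higher and 2 lower, in a comparison with 23.6% of all genes higher and 15.8% lower; among the 5 was the guanylate-binding protein gene Gbp2, at 66.6 CPM in HFD and 32.7 CPM in NCD cells (1.02). All 5 further chemokines and receptors at 5 CPM were lower, with the receptor genes Cxcr6 (−3.10) and Ccr2 (−2.52) farthest from 0, while Cxcr3 was higher. Of the transcription factors, Bhlhe40 (2.00) was higher and 3 of 4 were lower, among them Zeb2 (−2.83), which acts with T-bet in terminal effector cells. Il18r1 was at 138 CPM in HFD and 55.5 CPM in NCD cells (1.31) and its partner Il18rap at 32.0 and 50.1 CPM (−0.65). Of the cytotoxic list 2 of 6 were higher and 4 lower, with Gzma at −2.55 and Klrd1 at −2.31, both also NK cell genes. Of effector cytokines and ligands 2 of 4 were higher and 2 lower, with Lta at 2.87 and Csf2 at −4.96. Among cells without an Il1rl1 UMI, where 18.8% of all genes were lower and 14.8% higher, all 6 chemokines and receptors were lower, Xcl1 (−3.88) and Ccl4 (−3.59) the most, and 4 of the 8 interferon gamma genes were higher, with the chemokine gene Cxcl10 at 1.41. A UMI of the NK cell list was found in 0.511% of such HFD and 2.49% of such NCD cells, and the part of these cells in the ratios of the lists was not tested.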

How the data were processed

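The authors deposited unnormalized UMI counts, with hashtags listed after the genes, per the file headers. Cell Ranger is given there as 7.1.0 (Srebf2 pool) and 7.0.1 (diet pool), while the submitters' processing notes name 7.0.1 and mm10. Further steps of the authors: not given in the sources used here. Cells were kept by the filters stated above; droplets with mixed hashtags drop out, while doublets within a condition remain. Counts were summed per condition and scaled to CPM. Ratios add 0.5 to each sum and carry exact binomial-split intervals, levels exact Poisson and shares Clopper-Pearson intervals, at 95%. UMIs of each cell were thinned to 2000 for shares (311 KO, 307 WT, 711 HFD and 286 NCD cells were shallower and left out), and Il1rl1 was then read from the thinned cell. B cell-like barcodes held 2 or more Cd79a UMIs, and macrophage-like ones 2 or more Lyz2 UMIs, with no Cd3e UMI. The scripts were tested on simulated data. All 8 genes were described; of further lists the 2 genes farthest from 0 at 5 CPM were named, except where a result is not reported here. The genes, lists and tests were chosen with earlier results of these data known. Alternatives changed the hashtag call (HTODemux of Seurat 5.3.0 at quantile 0.99, or 95% and 20 UMIs), the cells (1000 genes, Foxp3-positive, marker cells kept or NK cells left out), depth, scaling (TMM of edgeR 4.0.16, median of ratios, no ribosomal or mitochondrial genes), cell weights and the share of Il1rl1-positive cells. Python 3.11.15, numpy 2.4.6, pandas 2.3.3 and scipy 1.17.1 were used.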

Additional observations from a re-analysis of the deposited data

Results flagged for a closer look

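Several ratios had opposite signs in cells with and without an Il1rl1 UMI, and the difference between both kinds of cells was not tested. For KO against WT, Ifng had a log2 ratio of 1.38 in cells with an Il1rl1 UMI and of −0.19 in cells without, where it was under the size rule and at 0.066 after thinning. For HFD against NCD, Cxcr3 was at 1.77 and −0.38, Tbx21 at 0.43 and −1.61, and Ccl5 at 0.43 and −1.66, in the same order. After thinning, Cxcr3 was at 0.042 in cells without an Il1rl1 UMI. In cells with one, Tbx21 passed the size rule under 8 and Ccl5 under 5 of 11 alternatives, with the same sign under all 11. Without the top cell of each condition, Tbx21 was at 0.38 (−0.02 to 0.75) and Ccl5 at 0.32 (0.22 to 0.43) there. The thinned Tbx21 shares in those cells were not told apart from background.

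Barcodes with a Cd8a UMI, which were left out of the comparisons, carried several of the genes more often than the kept cells. After thinning, Ccl5 was found in 86.2%, Nkg7 in 86.2%, Cxcr3 in 44.8%, Ifng in 31.0% and Tbx21 in 27.6% of the 29 such barcodes of the Srebf2 pool. In the diet pool, Nkg7 was found in 83.3%, Ccl5 in 80.7%, Tbx21 in 19.3% and Ifng in 16.7% of 114 such barcodes.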

How the results depend on the processing

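Of 544 values of the 8 genes recomputed under the alternatives, 451 stayed within the counting interval of the reported value. The sign differed for 25, of which 1 had passed the size rule: Cxcr3 in HFD against NCD cells without an Il1rl1 UMI, at 0.042 when cells were thinned. Of ratios under the size rule, Nkg7 in HFD against NCD over all cells was at 0.25 with cells holding Cd79a, Lyz2 or Cd8a kept, Tbx21 and Ccl5 at −1.07 and −1.15 with Il1rl1 shares equalized, and Ifng in KO against WT cells without an Il1rl1 UMI at 0.066 after thinning; the cause was not tested. The median log2 ratio of the 8 genes ran from 0.45 to 0.89 for KO against WT and from −1.11 to 0.13 for HFD against NCD over all cells. With Il1rl1 shares equalized, 0 genes were lower in KO, and in HFD the median was −1.11 with 0 genes higher and 6 lower. With cells holding Cd79a, Lyz2 or Cd8a kept, HFD had 2 genes higher and 1 lower. Among cells with an Il1rl1 UMI, 1 gene was lower in KO after thinning, by the mean over cells and without NK, gamma delta, NKT or Cd8b1 cells, the last chosen after seeing the data. There, HFD had 2 genes higher with HTODemux, TMM or median of ratios, and 3 higher and 2 lower after thinning. Shares of all genes under these settings are not given, so the counts do not tell how particular they are to the 8 genes. Among cells without one, the HFD median was −1.17 with marker cells kept, −1.21 after thinning, −1.33 by the mean over cells and −1.11 without NK, gamma delta, NKT or Cd8b1 cells. At 20 CPM or more and with no minimum, 2.99% and 23.9% of all genes were higher in KO and 2.21% and 18.4% lower, and 20.8% and 33.7% were higher in HFD and 14.3% and 25.9% lower. Without thinning, 22.9% of KO, 13.0% of WT, 18.8% of HFD and 14.5% of NCD cells held 3 or more of the genes. No paired analysis was possible because each condition is 1 pool of mice.

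Depth limits Il12rb2 most, with 13 to 64 UMIs in a condition. Differences between mice cannot be seen in pooled cells, and fewer cells with a transcript cannot be told apart from fewer transcripts per cell where a cell yields few UMIs.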
